A study of Mus musculus with 20 samples.

Results

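The brain extracellular matrix and its sulfation machinery were followed in 50 of the 47729 genes of the count files. The genes were taken by a rule on their symbols, and the set was chosen with earlier results of these data known. They were the numbered carbohydrate sulfotransferases (Chst), the chondroitin sulfate proteoglycans *Acan*, *Bcan*, *Ncan*, *Vcan*, *Cspg5* and *Ptprz1*, the link proteins (Hapln), the hyaluronan synthases (Has), the tenascins *Tnc* and *Tnr*, the glypicans (Gpc), the syndecans (Sdc), the heparan N-deacetylase/N-sulfotransferases (Ndst) and the heparan 3-O-sulfotransferases (Hs3st). Cortex and hippocampus had been taken at postnatal day 7 from 5 WT mice and 5 Ube3aOE mice, all on C57Bl/6J, and each tissue of each mouse gave 1 polyadenylated RNA library, 20 in all. Both tissues of a mouse came from the same animal. The Ube3aOE mice carried a floxed bacterial artificial chromosome (BAC) transgene with the whole mouse *Ube3a* gene and its flanking sequence, the sequenced mice were of the kind with 2 extra *Ube3a* copies, and WT mice carried none. The labels named no transgenic line. The study says that its characterization after the dosage experiments focused on line E, and its main text on the RNA sequencing names no line. In the lines mapped in the study the insertion lay on chromosome 3, which also holds *Bcan*, *Hapln2*, *Ndst3* and *Ndst4*.

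The matrix around central neurons is built on hyaluronan, a long unsulfated sugar that Has enzymes extrude through the cell membrane. Lecticans (*Acan*, *Bcan*, *Ncan* and *Vcan*) bind hyaluronan, link proteins clamp that bond, and tenascins cross-link the lecticans, and these components condense into perineuronal nets as circuits mature after birth. Lecticans carry chondroitin sulfate chains, whose sulfation at the 4 or 6 position is set by Chst enzymes, while syndecans and glypicans hold heparan sulfate chains at the cell surface, where the pattern written by Ndst and Hs3st enzymes decides which growth factors and guidance cues can bind.

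The promoters of 4 members are shown because they belong to the chondroitin 4-O-sulfotransferase that separated the regions (*Chst11*), to the sulfotransferase with the largest deficit in hippocampus (*Hs3st2*), and to a pair of neighbouring genes that differed between the regions in opposite directions (*Hapln1* and *Vcan*). Each runs 5′ to 3′ on the strand of its gene from 250 bases before to 50 after the start given by RefSeq on GRCm38.p6, and capitals mark the GC box, the letters GGGCGG or, on the other strand, CCGCCC. They lie at chr10:82985247-82985546 on the plus strand, chr7:121392046-121392345 on the plus strand, chr13:89540386-89540685 on the plus strand and chr13:89742463-89742762 on the minus strand.
*Chst11*: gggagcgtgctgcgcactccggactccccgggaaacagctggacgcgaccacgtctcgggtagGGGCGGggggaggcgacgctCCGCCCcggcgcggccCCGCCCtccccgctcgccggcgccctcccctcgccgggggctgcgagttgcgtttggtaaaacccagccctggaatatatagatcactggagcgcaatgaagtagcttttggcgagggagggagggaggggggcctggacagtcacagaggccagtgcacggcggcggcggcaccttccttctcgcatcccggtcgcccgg
*Hs3st2*: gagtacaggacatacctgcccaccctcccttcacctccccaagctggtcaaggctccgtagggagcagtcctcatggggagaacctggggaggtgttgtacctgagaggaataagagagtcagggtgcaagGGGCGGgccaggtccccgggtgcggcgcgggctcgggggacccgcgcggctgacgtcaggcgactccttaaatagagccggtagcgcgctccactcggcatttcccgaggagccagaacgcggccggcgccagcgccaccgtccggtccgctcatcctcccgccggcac
*Hapln1*: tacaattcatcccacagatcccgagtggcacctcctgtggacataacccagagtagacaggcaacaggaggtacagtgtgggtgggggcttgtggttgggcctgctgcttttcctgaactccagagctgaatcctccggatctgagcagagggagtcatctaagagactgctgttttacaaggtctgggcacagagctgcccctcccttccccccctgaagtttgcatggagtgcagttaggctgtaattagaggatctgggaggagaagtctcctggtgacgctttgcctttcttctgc
*Vcan*: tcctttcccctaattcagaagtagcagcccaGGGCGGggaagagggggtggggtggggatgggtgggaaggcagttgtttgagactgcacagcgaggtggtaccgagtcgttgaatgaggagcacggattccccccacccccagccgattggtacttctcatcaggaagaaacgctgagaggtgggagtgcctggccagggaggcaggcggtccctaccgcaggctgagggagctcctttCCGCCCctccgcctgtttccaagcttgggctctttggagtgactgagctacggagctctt
GC content was 71% over the *Chst11* window with 34 CpG dinucleotides and 3 GC boxes, and 67.7% over the *Hs3st2* window with 27 CpG and 1 GC box. The *Hapln1* window had 54.3% GC, 3 CpG and no GC box, against 61% GC, 12 CpG and 2 GC boxes in the *Vcan* window. In the GENCODE M21 annotation *Hapln1* begins at 89539796 and *Hs3st2* at 121391859, so the windows of both lie wholly within these genes. RefSeq gave 42 promoters for 39 of the 50 members, of which 31 held a GC box, as did 35.7% of the 32851 promoters of that table. The letters TATAAA or TTTATA stood in 5 of the 42 and in 13.6% of all promoters. The matches describe letters in these windows only, and no binding was measured.

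Between 14191093 and 16752326 reads per library were counted on genes. *Ube3a*, the transgene's gene, stood at 61.0 ± 5.71 CPM (counts scaled to one common library total; SD, n = 5) in WT cortex and 152 ± 27.1 in Ube3aOE cortex, and at 64.6 ± 8.21 and 162 ± 24.9 in hippocampus. Summed hippocampal marker genes separated the tissues in every library (470 to 672 CPM in hippocampus, 184 to 342 in cortex), and so did astrocyte markers (1459 to 2101 against 999 to 1321). Some libraries stood apart. Thalamus markers summed to 325 CPM in WT hippocampus of mouse 4 and to 405 and 740 in Ube3aOE hippocampus of mice 7 and 10, against 53.5 to 119 in the other hippocampus libraries. Striatum markers summed to 658 CPM in Ube3aOE hippocampus of mouse 9 against 57.9 to 79.4 in the other hippocampus libraries, and choroid plexus markers to 1968 and 351 in mice 7 and 9 against at most 33.9 in the others. Hippocampal markers were highest among the cortex libraries in Ube3aOE mice 8 and 9 (342 and 306 CPM, against at most 236). Leaving out these 6 libraries kept 4 WT and 2 Ube3aOE hippocampi and 5 WT and 3 Ube3aOE cortices, and values without them are given below beside the region differences over both genotypes that moved by over 1.5 times or changed their call, and beside some of the genotype differences. Hippocampus libraries were not screened for neocortex markers. WT mouse 2, highest for these at 527 CPM (261 to 482 in the other hippocampus libraries), was kept. The sex of 2 WT mice, numbers 3 and 5, did not match the labels.

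Matrix gene transcripts spanned several orders of magnitude. As CPM per kilobase of exon, *Sdc3*, a neuronal syndecan, was highest in both regions, at 191 ± 7.07 in cortex and 198 ± 34.0 in hippocampus (SD, n = 10), and the lectican *Ncan* came next at 104 ± 7.53 and 147 ± 13.9. Their libraries did not overlap in cortex and did in hippocampus. *Cspg5*, *Chst1* and *Bcan* followed in cortex at 56.5, 51.6 and 46.0, and the order of *Chst1*, *Bcan* and *Cspg5* in hippocampus was 60.9, 60.6 and 45.5. The level was at least 10 for 14 members in each region and below 1 for 16 in cortex and 11 in hippocampus.

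**Figure D1:**
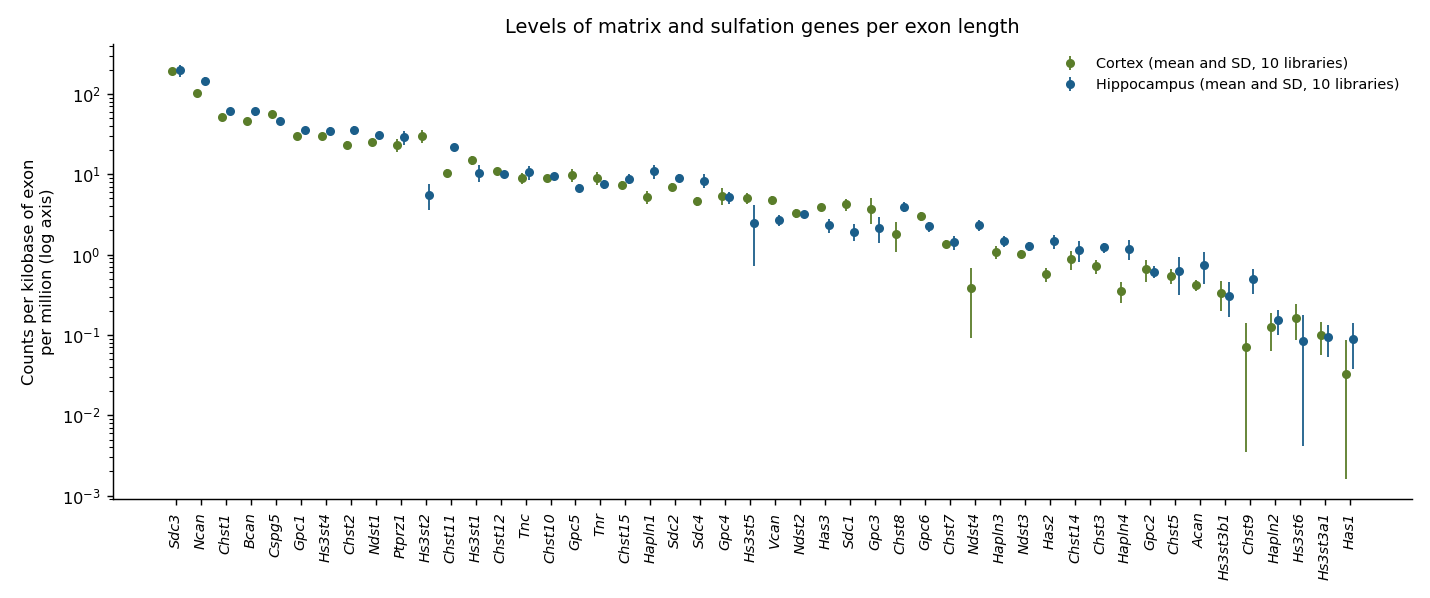
Level of 48 members in cortex and hippocampus as CPM per kilobase of exon on a log axis, with points at the mean of 10 libraries and bars of 1 SD. *Sdc3* and *Ncan* head both regions, and *Hs3st2* goes from rank 7 in cortex to rank 22 in hippocampus; *Chst13* and *Chst4*, with at most 2 reads in any library, are not drawn.

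*Chst11* ranked 14 in cortex and 11 in hippocampus on this scale, at 10.4 ± 1.28 and 21.8 ± 2.00. The enzyme transfers sulfate to the 4 position of N-acetylgalactosamine in chondroitin, as *Chst12* does. *Chst12* stood at 11.0 ± 1.04 in cortex, within the spread of *Chst11*, and at 9.95 ± 1.06 in hippocampus, below every *Chst11* value there. The summed level of *Chst11*, *Chst12* and *Chst13*, for 4-O-sulfation, was set against that of *Chst3* and *Chst7*, for 6-O-sulfation. The ratio was 10.4 ± 0.933 in cortex and 12.2 ± 2.07 in hippocampus (SD, n = 10), with overlapping libraries. *Chst14* and *Chst15* entered neither sum. The size of the ratio depends on that choice, as *Chst15* stood at 7.38 in cortex and 8.80 in hippocampus. *Chst3* and *Chst7* stood at 0.719 and 1.353 in cortex and at 1.235 and 1.424 in hippocampus.

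The region comparison asked which of these genes differed between hippocampus and cortex, with both genotypes averaged. Of 44 members with enough reads, 33 differed at an adjusted P under 0.05 (edgeR's quasi-likelihood test, Benjamini-Hochberg adjustment over 15661 genes), where 50.9% of all tested genes did. In hippocampus 22 were higher and 11 lower, against 25.3% and 25.6% of all genes. *Chst9* was among the 33 and among the 22 higher, and passed the filter on low counts through hippocampus alone. Without *Chst9* 32 of 43 were called. Beyond a log2 fold change of 0.5 in either direction were 19 members, 11 higher (*Chst9* included) and 8 lower, where 19.2% of all genes passed. The median size of the difference was 0.41 over the members and 0.20 over all genes on the log2 scale. All 10 hippocampus libraries lay above, or all below, the 10 cortex libraries for 14 members (10 above, 4 below), and 9.25% of all genes separated in that way. In bulk tissue, fewer cells of a type and less RNA per cell cannot be told apart.

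**Figure D2:**
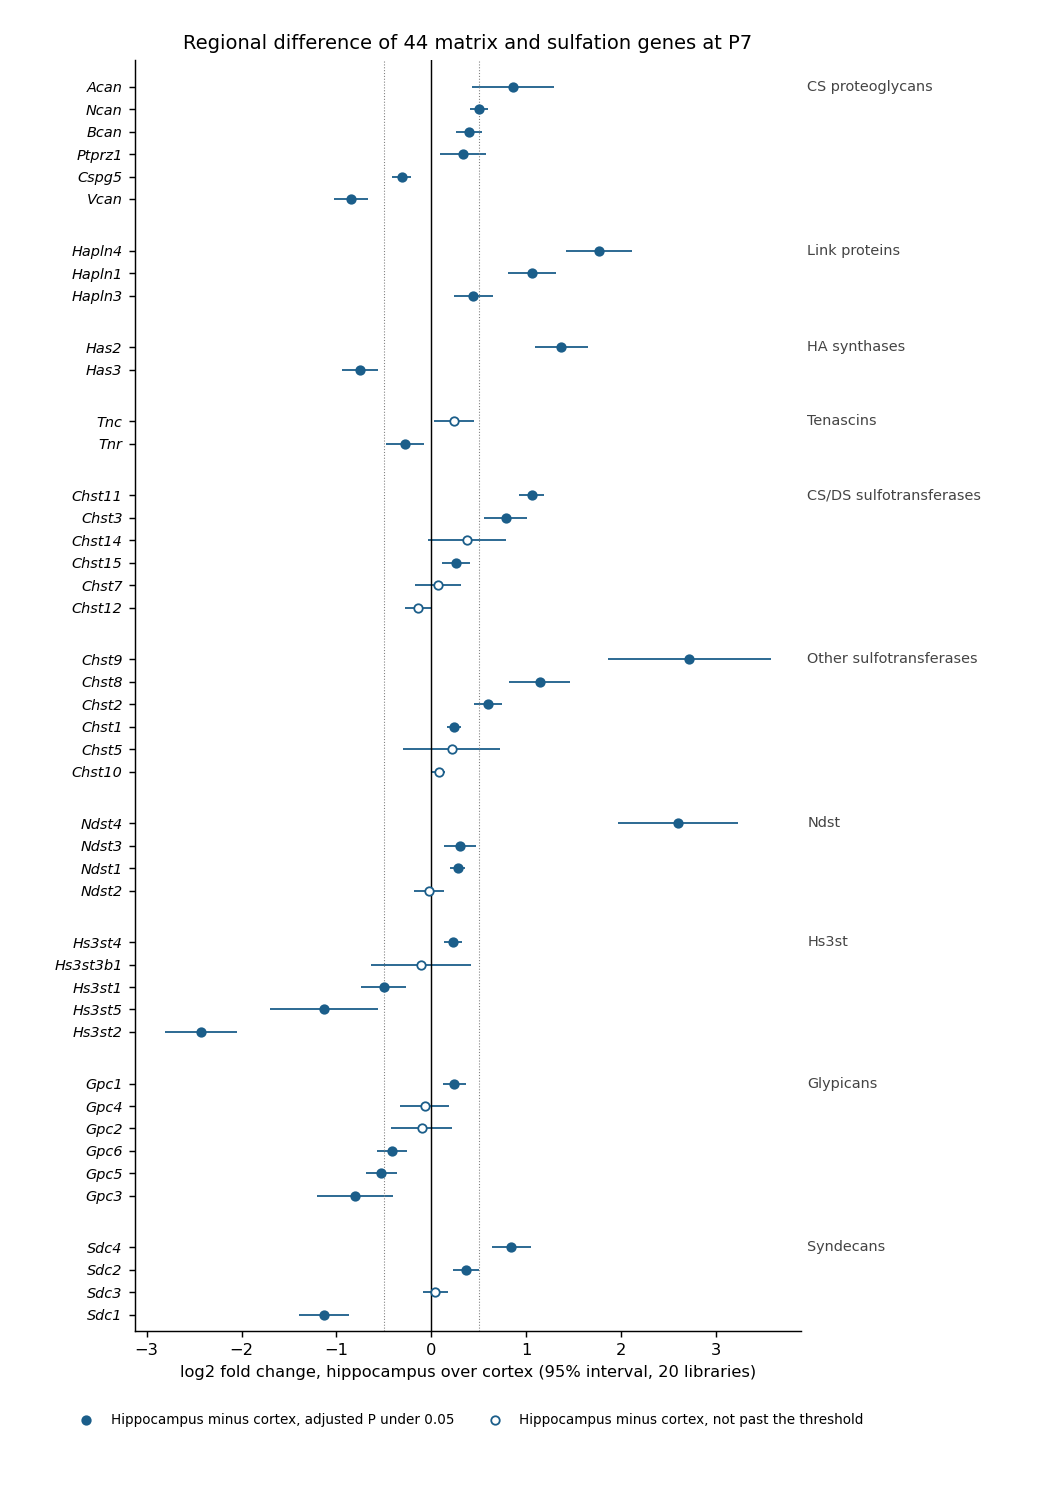
Log2 fold change of 44 members in hippocampus relative to cortex, grouped by role, with 95% confidence intervals; filled points have an adjusted P under 0.05. Among members that passed the filter in both tissues, *Ndst4* and *Hapln4* lie farthest to the right and *Hs3st2* farthest to the left. *Chst9*, also drawn far to the right, passed it through hippocampus alone and on few reads.

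Markers of glia and of dividing progenitors moved with the region. Of 8 astrocyte markers 7 were higher in hippocampus, as were 4 of 6 oligodendrocyte precursor markers (343 to 585 CPM summed, against 304 to 423 in cortex), 4 of 6 microglial markers (85.9 to 143 against 70.1 to 116) and 6 of 6 genes of radial glia and division (179 to 303 against 92.4 to 157). Of 7 meningeal fibroblast markers 2 were lower (67.3 to 239 CPM against 67.7 to 355). Of 7 interneuron markers 4 were higher and 1 lower, of 5 Cajal-Retzius markers 4 were higher, of 6 endothelial and of 5 mural markers 1 each was lower, and of 5 oligodendrocyte markers tested none differed. No marker was at 0 in every library. Their part in the differences of the matrix genes was not tested.

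The counts by role below stand beside 50.9% of all tested genes called by region, 25.3% higher and 25.6% lower in hippocampus. Among the enzymes that sulfate chondroitin at position 4 or 6, 3 of the 6 tested were higher in hippocampus and none was lower at the threshold. With 50% called, this group was near the share over all genes. *Chst11* stood at 60.4, 57.0, 52.7, 50.7 and 51.1 CPM in WT cortex and 55.2, 53.2, 72.8, 66.1 and 57.8 in Ube3aOE cortex. In hippocampus it stood at 129, 108, 136, 113 and 127 CPM in WT and 127, 121, 129, 102 and 109.9 in Ube3aOE mice. Every hippocampus library was above every cortex library, while the genotypes overlapped in each tissue. The gene, ENSMUSG00000034612 on chromosome 10 (82985498 to 83195900, plus strand, GRCm38), was 2.09-fold higher in hippocampus (log2 fold change 1.06, SE 0.0628, 95% CI 0.93 to 1.19, adjusted P = 1.38e-10). *Chst3*, a chondroitin 6-O-sulfotransferase, was 1.72-fold higher (0.79, adjusted P = 5.08e-06). Per kilobase its mean lay below that of *Chst7* in both regions (0.719 against 1.353 in cortex, 1.235 against 1.424 in hippocampus). *Chst15*, which adds a further sulfate to 4-sulfated units and so makes chondroitin sulfate E, differed by 0.26, adjusted P = 0.00485.

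*Chst12*, *Chst14* and *Chst7* did not pass. *Chst12* had a log2 fold change of -0.14 (95% CI -0.27 to -0.00284; adjusted P = 0.0821, and 0.00953 with the mouse as a block), *Chst14*, which 4-O-sulfates dermatan, 0.38 (-0.03 to 0.79), and *Chst7*, a 6-O-sulfotransferase, 0.07 (-0.17 to 0.32; 0.16 without the 6 libraries set apart). The intervals of *Chst12* and *Chst7* kept within 0.5 of no difference, and that of *Chst14* did not. *Chst13* had at most 2 reads in any library and was not tested.

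The remaining carbohydrate sulfotransferases act on other sugars, and 4 of the 6 tested were higher in hippocampus, *Chst9* included. *Chst9*, which sulfates N-acetylgalactosamine on glycoproteins, had 0.128, 0, 0.129, 0.128 and 0.311 CPM in WT cortex and 0, 0, 0.417, 0.0610 and 0.190 in Ube3aOE cortex. It had 1.17, 0.246, 0.985, 1.09 and 1.44 CPM in WT hippocampus and 0.893, 1.09, 1.00, 0.578 and 1.14 in Ube3aOE hippocampus. These values stand on 0 to 7 reads in a cortex library and 4 to 25 in a hippocampus library, and WT hippocampus of mouse 2 lay within the cortical range. *Chst8*, which acts on the same sugar and is best known from pituitary hormones, stood at 8.03, 12.6, 8.61, 8.46 and 7.90 CPM in WT cortex and 8.89, 8.40, 18.2, 19.3 and 7.91 in Ube3aOE cortex. Its hippocampus libraries held 25.8, 29.0, 27.3, 21.9 and 22.1 CPM in WT and 24.1, 20.99, 23.3, 24.2 and 17.8 in Ube3aOE mice. Ube3aOE cortex of mice 8 and 9, the libraries with the most hippocampal marker RNA, reached into the hippocampal range, and the other cortex libraries stayed below it. The fold was 2.21 (log2 fold change 1.14, SE 0.155, 95% CI 0.82 to 1.47, adjusted P = 5.17e-06), and the log2 fold change was 1.52 without the 6 libraries set apart. *Chst2*, which sulfates N-acetylglucosamine, was 1.52-fold higher and separated the regions in all libraries (0.60, adjusted P = 6.15e-07). *Chst1*, a keratan sulfate sulfotransferase, differed by 0.24, adjusted P = 1.93e-05. *Chst10*, which makes the HNK-1 epitope, gave 0.08, adjusted P = 0.0531 (0.0348 with the mouse as a block), and *Chst5* gave 0.22, adjusted P = 0.488, or -0.33 without the 6 libraries set apart. *Chst4* had at most 2 reads.

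All 6 chondroitin sulfate proteoglycans differed between the regions, 4 higher in hippocampus and 2 lower. *Ncan*, the lectican of the juvenile brain, had 766, 644, 696, 709 and 749 CPM in WT cortex and 790.1, 817, 740.2, 752 and 814 in Ube3aOE cortex. It had 1066, 919, 1061, 959 and 1016 CPM in WT hippocampus and 1251, 1040, 1143, 978 and 1142 in Ube3aOE hippocampus. Hippocampus lay above cortex in all libraries, by 1.41-fold (log2 fold change 0.50, SE 0.0461, 95% CI 0.40 to 0.60, adjusted P = 2.29e-08).

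*Acan*, the lectican that marks perineuronal nets, was low at this age. It stood at 3.44, 2.24, 3.11, 3.01 and 2.36 CPM in WT cortex and 3.75, 2.91, 3.46, 3.48 and 3.16 in Ube3aOE cortex. Its hippocampus libraries held 7.55, 2.58, 5.24, 4.77 and 6.63 CPM in WT and 10.7, 5.19, 6.85, 3.08 and 3.47 in Ube3aOE mice. WT mouse 2 and Ube3aOE mice 9 and 10 had hippocampal levels inside the cortical range, and the other 7 lay above it. The log2 fold change was 0.86 (SE 0.206, 95% CI 0.43 to 1.29, adjusted P = 0.00164) and 1.19 without the 6 libraries set apart above. *Bcan*, a lectican of maturing matrix, was higher (0.40, adjusted P = 4.15e-05), as was *Ptprz1*, the receptor phosphatase whose secreted form is phosphacan (0.33, adjusted P = 0.0232). The call on *Ptprz1* was lost without WT mouse 2 (adjusted P = 0.0751), without Ube3aOE mouse 6 (0.0547) and with no filter on low counts (0.0541), and its log2 fold change was 0.52 (adjusted P = 0.0140) without the 6 libraries set apart. *Cspg5*, a transmembrane proteoglycan of neurons, was lower (-0.31, adjusted P = 1.52e-05).

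*Vcan*, the lectican of early development, went the other way. It had 79.4, 54.5, 75.3, 57.5 and 65.9 CPM in WT cortex, 78.7, 77.7, 68.8, 68.1 and 64.8 in Ube3aOE cortex, 40.8, 48.3, 31.0, 31.8 and 32.8 in WT hippocampus and 47.6, 36.5, 41.5, 37.0 and 37.8 in Ube3aOE hippocampus. All hippocampus libraries were below all cortex libraries, by 1.79-fold (log2 fold change -0.84, SE 0.0866, 95% CI -1.02 to -0.66, adjusted P = 1.27e-07). Of the summed lectican level per kilobase, *Vcan* made up 3.08 ± 0.3% in cortex and 1.27 ± 0.236% in hippocampus (SD, n = 10), *Ncan* 67.0 ± 1.56% and 69.7 ± 1.80%, *Bcan* 29.6% and 28.7%, and *Acan* 0.267% and 0.349%.

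The 3 link proteins tested, *Hapln1*, *Hapln3* and *Hapln4*, were all higher in hippocampus. *Hapln4*, a link protein of nets around inhibitory synapses, stood at 1.21, 1.195, 1.42, 0.961 and 0.684 CPM in WT cortex and 1.97, 1.68, 1.67, 1.83 and 1.27 in Ube3aOE cortex. It stood at 3.57, 2.46, 4.25, 5.97 and 5.42 CPM in WT hippocampus and 6.43, 3.50, 4.37, 4.63 and 5.87 in Ube3aOE hippocampus. The regions did not overlap, and the fold was 3.41 (log2 fold change 1.77, SE 0.169, 95% CI 1.42 to 2.12, adjusted P = 3.50e-08). *Hapln1*, the most abundant link protein here, had 29.9, 23.5, 32.1, 31.9 and 34.0 CPM in WT cortex, 26.9, 21.4, 36.7, 34.8 and 37.4 in Ube3aOE cortex, 74.3, 50.9, 67.8, 63.5 and 78.9 in WT hippocampus and 76.7, 47.8, 78.0, 51.9 and 55.5 in Ube3aOE hippocampus. Its regions also stood apart in all libraries, by 2.09-fold (log2 fold change 1.06, SE 0.119, 95% CI 0.81 to 1.31, adjusted P = 5.99e-07). *Hapln3* differed by 0.44, adjusted P = 0.000771. *Hapln2*, the link protein of nodes of Ranvier, had 1 to 11 reads and was not tested.

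*Hapln1* and *Vcan* are neighbours on chromosome 13 (89539796 to 89611652, plus strand, and 89655312 to 89742509, minus strand, GRCm38), 43.7 kb apart, and both were picked for this description after their values were seen. The ratio of *Hapln1* to *Vcan* per kilobase ran from 0.674 to 1.41 in cortex and from 2.58 to 5.90 in hippocampus, with means of 1.11 ± 0.246 and 4.20 ± 1.03 (SD, n = 10). No library of one region entered the range of the other. Other adjacent members shared a direction: *Acan* and *Hapln3*, 2 bases apart on chromosome 7, were both higher in hippocampus, as were *Hapln4* and *Ncan*, 2222 bases apart on chromosome 8. Reads at the facing ends of *Acan* and *Hapln3* could be assigned to either gene, or to neither, where strand was not used in counting.

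**Figure D3:**
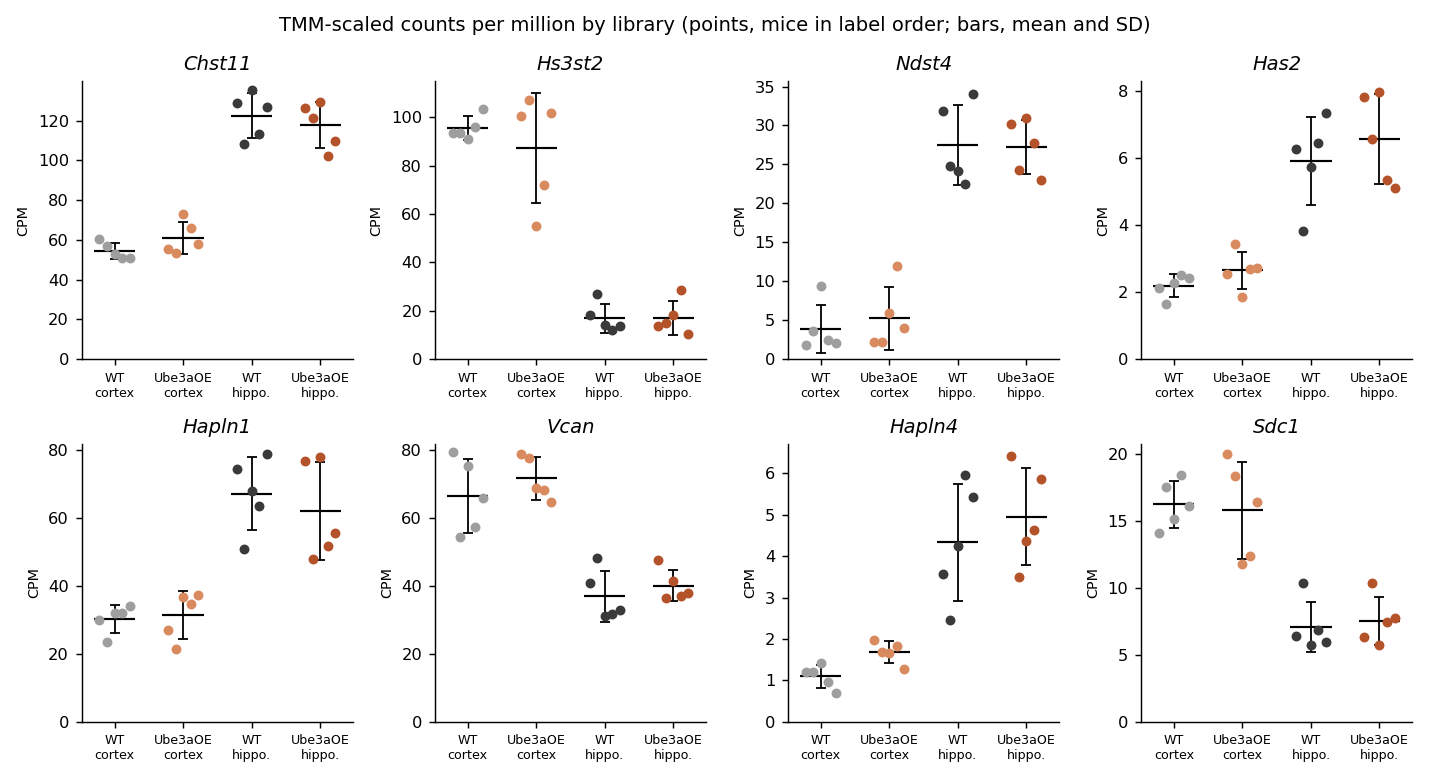
CPM of *Chst11*, *Hs3st2*, *Ndst4*, *Has2*, *Hapln1*, *Vcan*, *Hapln4* and *Sdc1* in each library, in 4 groups of 5, with the mean and SD of each group. For all 8 genes the 10 hippocampus libraries lie wholly above or wholly below the 10 cortex libraries, and WT and Ube3aOE points overlap within each tissue.

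Of the hyaluronan synthases, *Has2* was higher and *Has3* lower in hippocampus. *Has2*, the synthase of long chains and the one needed in the embryo, had 2.104, 1.64, 2.27, 2.50 and 2.43 CPM in WT cortex, 2.54, 3.42, 1.85, 2.68 and 2.72 in Ube3aOE cortex, 6.27, 3.81, 5.73, 6.43 and 7.33 in WT hippocampus and 7.80, 6.57, 7.97, 5.33 and 5.09 in Ube3aOE hippocampus. Every hippocampus library was above every cortex library (log2 fold change 1.37, SE 0.134, 95% CI 1.09 to 1.65, adjusted P = 4.93e-08). *Has3*, which makes shorter chains, had 24.5, 29.8, 23.0, 24.0 and 24.1 CPM in WT cortex, 25.3, 24.6, 21.3, 24.5 and 26.3 in Ube3aOE cortex, 13.2, 19.5, 11.6, 13.9 and 14.3 in WT hippocampus and 15.3, 14.8, 14.3, 19.3 and 11.0 in Ube3aOE hippocampus. It was lower in all hippocampus libraries, by 1.68-fold (log2 fold change -0.75, SE 0.0919, 95% CI -0.94 to -0.56, adjusted P = 9.18e-07). Per kilobase, *Has3* exceeded *Has2* by 4.77 to 12.0 times in cortex and by 1.19 to 3.40 times in hippocampus. *Has2* thus made up 12.8% of the summed synthase level in cortex and 38.3% in hippocampus. *Has1* had 0 to 15 reads and was not tested.

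Of the tenascins, *Tnr* was lower in hippocampus and *Tnc* did not pass. *Tnr*, the tenascin of nets and nodes, had 124, 78.2, 123, 117 and 136 CPM in WT cortex, 114, 127, 86.8, 113 and 149 in Ube3aOE cortex, 97.2, 89.6, 85.3, 83.7 and 89.7 in WT hippocampus and 105, 80.0, 108, 119 and 106 in Ube3aOE hippocampus. The regions overlapped widely (log2 fold change -0.28, SE 0.0966, 95% CI -0.48 to -0.08, adjusted P = 0.0205), and the call was lost without any one of WT mice 3, 4 and 5 or Ube3aOE mice 7 and 10 (adjusted P from 0.0509 to 0.0642). It was also lost with no filter on low counts (adjusted P = 0.0586) and without the WT mice against their labelled sex (-0.20, adjusted P = 0.183). *Tnc*, the tenascin of progenitors and astrocytes, had 78.0, 49.4, 62.2, 61.6 and 65.9 CPM in WT cortex, 74.3, 89.1, 75.5, 76.95 and 66.4 in Ube3aOE cortex, 99.0, 67.8, 74.0, 74.9 and 75.5 in WT hippocampus and 122, 82.0, 85.7, 63.3 and 79.4 in Ube3aOE hippocampus. Its values overlapped (log2 fold change 0.24, SE 0.103, 95% CI 0.03 to 0.46, adjusted P = 0.0571). With the mouse as a block the adjusted P of *Tnc* was 0.0276, and without the 6 libraries set apart its log2 fold change was 0.38 (adjusted P = 0.0206).

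On the heparan sulfate side, 3 of the 4 Ndst enzymes were higher in hippocampus. Ndst enzymes open heparan chains to sulfation by replacing N-acetyl with N-sulfate groups. *Ndst4* stood at 1.85, 3.59, 9.32, 2.50 and 2.05 CPM in WT cortex and 2.16, 2.20, 5.96, 11.9 and 3.99 in Ube3aOE cortex. In hippocampus it stood at 31.9, 24.8, 24.2, 22.5 and 34.0 CPM in WT and 30.2, 24.3, 30.9, 27.7 and 23.0 in Ube3aOE mice. Cortex stayed below hippocampus in all libraries, although WT mouse 3 and Ube3aOE mice 8 and 9 were well above the other cortex libraries. The fold was 6.06 (log2 fold change 2.60, SE 0.300, 95% CI 1.97 to 3.23, adjusted P = 1.38e-06), and the log2 fold change was 3.18 without the 6 libraries set apart. *Ndst1*, the broadly expressed member, made up 84.4% of the summed Ndst level per kilobase in cortex and 81.8% in hippocampus, against 1.28 ± 0.924% and 6.25 ± 0.936% for *Ndst4* (SD, n = 10). *Ndst1* (0.28, adjusted P = 3.11e-06) and *Ndst3* (0.30, adjusted P = 0.00375) were higher, and *Ndst2* gave -0.02 (95% CI -0.18 to 0.13; -0.0689 without the 6 libraries set apart).

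The 3-O-sulfotransferases, which add the rarest heparan modification, split: of 5 tested, 3 were lower and 1 was higher in hippocampus. *Hs3st2* had 93.4, 93.5, 90.8, 95.9 and 104 CPM in WT cortex and 100.3, 107, 55.2, 72.0 and 102 in Ube3aOE cortex. It had 18.0, 26.7, 14.0, 11.9 and 13.8 CPM in WT hippocampus and 13.5, 15.0, 18.1, 28.7 and 10.4 in Ube3aOE hippocampus. The regions stood apart in every library. Within cortex Ube3aOE mice 8 and 9 were lowest, and within hippocampus WT mouse 2 and Ube3aOE mouse 9, the libraries with the most neocortical marker RNA (527 and 482 CPM), were highest. The gene, on chromosome 7 (121391859 to 121501770, plus strand, GRCm38), was 5.37-fold lower in hippocampus (log2 fold change -2.42, SE 0.180, 95% CI -2.80 to -2.05, adjusted P = 8.03e-09). *Hs3st4*, another neuronal 3-O-sulfotransferase, differed by 0.23, adjusted P = 0.000315. Per kilobase, *Hs3st4* and *Hs3st2* were about level in cortex (ratio 0.885 to 1.58, mean 1.03 ± 0.217, SD, n = 10), and *Hs3st4* exceeded *Hs3st2* by 3.04 to 9.39 times in hippocampus (mean 6.99 ± 2.26). *Hs3st1*, which makes the antithrombin-binding site of heparin, was lower (-0.50, adjusted P = 0.000908). *Hs3st3b1* gave -0.11 (95% CI -0.64 to 0.42; -0.54, adjusted P = 0.124, without the 6 libraries set apart), while *Hs3st3a1* (2 to 12 reads) and *Hs3st6* (0 to 6 reads) were not tested.

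*Hs3st5* was lower in hippocampus and differed widely from one hippocampus to the next. It stood at 24.4, 23.8, 25.0, 21.98 and 21.6 CPM in WT cortex and 27.1, 18.5, 16.4, 18.0 and 22.2 in Ube3aOE cortex, a narrow band. In hippocampus it stood at 4.92, 10.1, 5.48, 10.1 and 3.81 CPM in WT mice and at 3.51, 22.6, 6.55, 15.8 and 23.6 in Ube3aOE mice. Ube3aOE mice 7 and 10 reached the cortical band, mouse 9 lay just under it, and mice 6 and 8 and all 5 WT hippocampi lay well below. Mice 7, 9 and 10 were also the Ube3aOE hippocampi set apart above for thalamus, striatum or choroid plexus markers; of the WT hippocampi, mice 2 and 4 were highest, with the most neocortical and the most thalamic marker RNA of their group. Over both genotypes the log2 fold change was -1.13 (SE 0.272, 95% CI -1.70 to -0.56, adjusted P = 0.00208), and it was -2.05 (adjusted P = 1.66e-06) without the 6 libraries set apart.

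**Figure D4:**
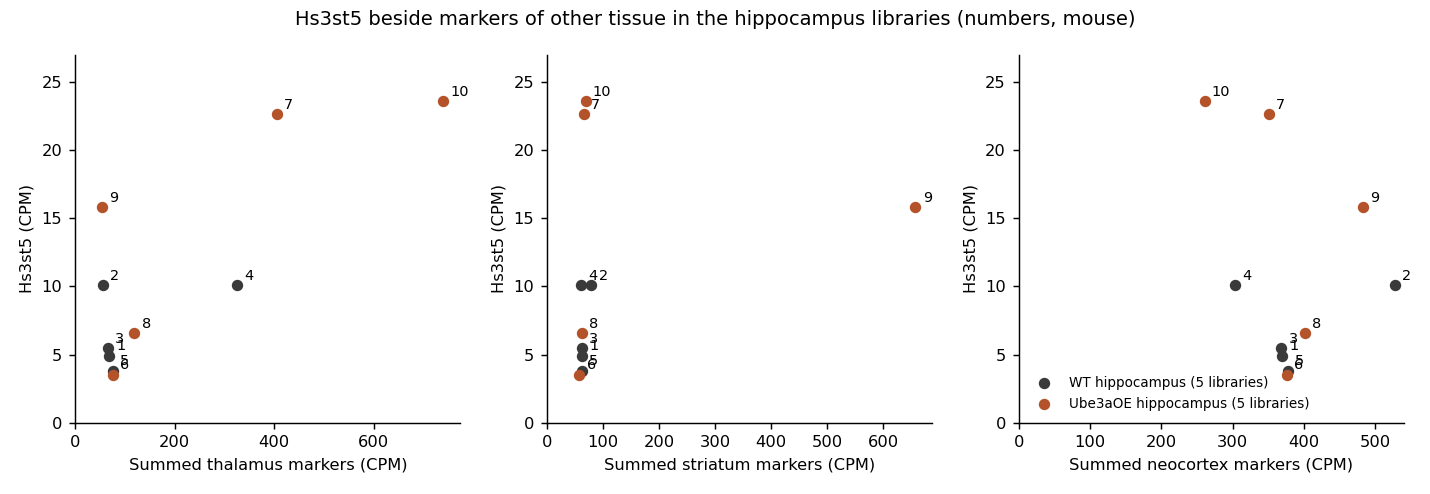
*Hs3st5* in CPM against the summed CPM of thalamus, striatum and neocortex markers in the 10 hippocampus libraries, with mouse numbers beside the points (WT 1 to 5, Ube3aOE 6 to 10). The 3 highest *Hs3st5* values, 15.8 to 23.6 CPM, belong to mice 7 and 10, with thalamus markers at 405 and 740 CPM, and mouse 9, with striatum markers at 658 CPM.

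Glypicans and syndecans, the cell-surface carriers of heparan sulfate, did not move as a block. Of 6 glypicans 1 was higher in hippocampus (*Gpc1*, 0.24, adjusted P = 0.00181), 3 were lower, and *Gpc2* (-0.10, 95% CI -0.42 to 0.22) and *Gpc4* (-0.07, -0.32 to 0.18; 0.21 without the 6 libraries set apart), which astrocytes secrete, did not pass. *Gpc3*, a glypican that restrains hedgehog signalling, had 7.14, 12.0, 9.45, 8.20 and 9.27 CPM in WT cortex, 6.54, 8.98, 19.3, 10.9 and 8.54 in Ube3aOE cortex, 5.86, 5.41, 3.57, 5.97 and 2.77 in WT hippocampus and 4.52, 7.30, 6.73, 10.2 and 5.93 in Ube3aOE hippocampus. Ube3aOE cortex of mouse 8 was highest, and the regions overlapped (log2 fold change -0.81, SE 0.193, 95% CI -1.21 to -0.40, adjusted P = 0.00171). *Gpc5* had 49.3, 42.8, 44.5, 49.5 and 52.9 CPM in WT cortex, 45.3, 40.0, 30.1, 32.5 and 51.7 in Ube3aOE cortex, 33.9, 30.4, 33.9, 30.1 and 33.5 in WT hippocampus and 27.7, 24.3, 28.8, 30.7 and 30.8 in Ube3aOE hippocampus. Ube3aOE cortex of mice 8 and 9 fell into the hippocampal range, and the other cortex libraries lay above it (log2 fold change -0.53, SE 0.0796, 95% CI -0.69 to -0.36, adjusted P = 1.29e-05). *Gpc6*, the neighbour of *Gpc5* on chromosome 14 and an astrocyte-secreted glypican, was lower as well (-0.42, adjusted P = 0.000136).

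Of 4 syndecans, *Sdc2* and *Sdc4* were higher and *Sdc1* lower in hippocampus. *Sdc1*, the syndecan of epithelia and neural progenitors, had 14.1, 17.6, 15.1, 18.5 and 16.1 CPM in WT cortex, 20.1, 18.4, 11.8, 12.4 and 16.4 in Ube3aOE cortex, 6.44, 10.4, 5.73, 6.89 and 6.00 in WT hippocampus and 6.31, 10.4, 5.73, 7.45 and 7.78 in Ube3aOE hippocampus. All hippocampus libraries were below all cortex libraries, by 2.19-fold (log2 fold change -1.13, SE 0.127, 95% CI -1.40 to -0.87, adjusted P = 3.03e-07). *Sdc4*, a focal adhesion syndecan found on astrocytes, was 1.79-fold higher and separated the regions (0.84, adjusted P = 5.81e-07), and *Sdc2*, a syndecan of dendritic spines, differed by 0.37, adjusted P = 8.94e-05. *Sdc3* had 1083, 1181, 1101, 1140 and 1124 CPM in WT cortex, 1149, 1175, 1188, 1197 and 1089 in Ube3aOE cortex, 989, 1195, 1055, 1157 and 954 in WT hippocampus and 1012, 1315, 1158, 1386 and 1605 in Ube3aOE hippocampus. Cortex was narrow and hippocampus broad around the same level, with Ube3aOE mouse 10 highest (log2 fold change 0.04, SE 0.0626, 95% CI -0.09 to 0.17, adjusted P = 0.591; -0.0791 without the 6 libraries set apart).

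The wider pathway, 101 further genes of chain synthesis, sulfation, turnover and matrix binding, was measured beside the members. Of 100 tested, 58 differed between the regions, 34 higher and 24 lower in hippocampus, and 25 were beyond 0.5 (14 higher, 11 lower), where 50.9% of all tested genes differed and 19.2% were beyond 0.5. *Otx2*, *Tnn* and *Timp1* did not pass the filter in each tissue by itself, and without them 56 of 97 differed, or 57.7%. Of the receptors and binding partners of the matrix 12 of 13 were called (10 of 11 without *Otx2* and *Tnn*), and of the sulfate donor genes 1 of 7. Of the other lists, 8 of 13 genes of the linkage region and chondroitin polymerization were called, 1 of 3 of dermatan epimerization and uronyl sulfation, 2 of 5 of heparan polymerization, 4 of 7 of further heparan modification, 3 of 4 of the HNK-1 and keratan sugars, 5 of 11 sulfatases and lysosomal enzymes, 9 of 14 proteases and inhibitors, 3 of 8 of hyaluronan turnover and 10 of 15 further proteoglycans and matrix proteins.

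Among these, 7 were beyond a log2 fold change of 1. *Adamts9*, a protease that cleaves *Vcan* and *Acan*, rose from 5.75 ± 2.04 CPM in cortex to 13.9 ± 2.20 in hippocampus (SD, n = 10; log2 fold change 1.28, SE 0.149, adjusted P = 5.98e-07). *Nptx2*, a secreted pentraxin of excitatory synapses, was at 17.4 ± 3.11 and 50.8 ± 11.1 CPM (1.55, SE 0.128, adjusted P = 1.42e-08). *Smoc2*, a secreted matrix protein, was at 4.02 ± 1.06 and 17.6 ± 4.99 CPM (2.13, SE 0.174, adjusted P = 9.63e-09). These were higher in hippocampus. *Sema3a*, a guidance cue that binds chondroitin sulfate E in nets, was at 39.7 ± 3.67 and 11.1 ± 9.99 CPM (-1.90, SE 0.265, adjusted P = 1.23e-05). *Fmod*, a keratan sulfate proteoglycan, was at 16.3 ± 14.5 and 2.43 ± 1.04 CPM (-2.69, SE 0.378, adjusted P = 1.27e-05), with an SD in cortex close to its mean and meningeal fibroblast markers between 67.7 and 355 CPM there. The other two passed the filter through one tissue. *Tnn*, a further tenascin, was at 1.16 ± 0.265 and 0.509 ± 0.354 CPM. *Otx2*, a transcription factor that nets take up and also 1 of the choroid plexus markers used here, was at 0.0395 ± 0.0458 and 2.30 ± 2.57 CPM, with at most 0.129 CPM in any cortex library and 7.12 and 6.70 in Ube3aOE hippocampus of mice 7 and 10.

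The regional pattern was then taken within each genotype. In WT mice 30 of 44 members differed between the regions (19 higher, 11 lower), where 37.1% of all genes did, and in Ube3aOE mice 28 did (20 higher, 8 lower), where 33.2% of all genes did. The genotypes share no animals, though both contrasts came from the same fit, and 26 members, *Chst9* included, were called in both with the same sign. The share of all genes called in both was not counted, so the 26 cannot be set against a background. *Hs3st5*, *Tnr*, *Chst15* and *Gpc3* were called in WT alone, and *Ndst3* and *Gpc1* in Ube3aOE alone. For *Chst11* the log2 fold change was 1.17 in WT and 0.95 in Ube3aOE mice, for *Hs3st2* -2.50 and -2.35, and for *Ndst4* 2.83 and 2.37. A test of the difference itself, the interaction of genotype and region, called none of the members, as it called 0% of all genes. At an unadjusted P under 0.05 it passed 2 members, where 3.77% of all genes passed. They were *Hs3st5*, at -1.76 in WT and -0.50 in Ube3aOE mice (interaction 1.26, 95% CI 0.12 to 2.40, unadjusted P = 0.0324, adjusted P = 0.997), and *Chst8*, at 1.47 and 0.82 (interaction -0.66, 95% CI -1.30 to -0.01, unadjusted P = 0.0457, adjusted P = 0.997). Without the 6 libraries set apart the interaction was -0.21 for *Hs3st5* and -0.02 for *Chst8*. In Ube3aOE mice *Hs3st5* then differed between the regions by -2.16 (adjusted P = 0.000264), *Chst8* by 1.51 and *Chst15* by 0.31 (adjusted P = 0.0195), while *Ndst3* (adjusted P = 0.0535) and *Gpc1* (adjusted P = 0.133) were no longer called there.

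The genotype comparison asked whether extra *Ube3a* changed these genes within a tissue. No member differed between Ube3aOE and WT mice in hippocampus (smallest adjusted P = 0.668) or in cortex (smallest adjusted P = 0.96). Across all genes 1 was called in each tissue, 0.00657% of those tested in hippocampus and 0.00669% in cortex. DESeq2 and limma voom also called 0 members. At an unadjusted P under 0.05 were 5 of 44 members in hippocampus, where 7.21% of all genes passed, and 4 of 43 in cortex, where 4.44% did. For no member did the genotypes stand apart in all libraries, as they did for 1.13% of all genes in hippocampus and 0.676% in cortex.

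*Chst11* differed by a log2 fold change of -0.06 in hippocampus (95% CI -0.23 to 0.12, unadjusted P = 0.491) and 0.17 in cortex (-0.02 to 0.36, unadjusted P = 0.0779), and its libraries overlapped in both tissues. Without the 6 libraries set apart it gave 0.03 in each tissue (95% CI -0.18 to 0.24 in hippocampus and -0.13 to 0.18 in cortex). The 2 cortex libraries then absent, Ube3aOE mice 8 and 9, had the highest cortical *Chst11* (72.8 and 66.1 CPM) and the most hippocampal marker RNA. The intervals bound how large a change could be. They kept within 0.5 on the log2 scale for 25 of 44 members in hippocampus, where 69.9% of all genes did, and for 26 of 43 in cortex, where 73.8% did. Of the members on chromosome 3, *Bcan* gave 0.08 in hippocampus and 0.05 in cortex, *Ndst3* gave 0.08 and -0.07, and *Ndst4* gave -0.01 and 0.45, the last with a 95% CI of -0.90 to 1.80 and at -0.47 without the 6 libraries set apart. *Hs3st5* gave 1.06 in hippocampus (95% CI -0.13 to 2.26, unadjusted P = 0.0751), and -0.27 (95% CI -1.23 to 0.69) without WT mouse 4 and Ube3aOE mice 7, 9 and 10, the hippocampus libraries set apart.

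The members past the unadjusted threshold in hippocampus were *Sdc3* (0.27, 95% CI 0.03 to 0.51, unadjusted P = 0.0281), *Hapln3* (0.33, 0.05 to 0.61, unadjusted P = 0.0225), *Tnr* (0.21, 0.02 to 0.41, unadjusted P = 0.0330), *Gpc3* (0.55, 0.01 to 1.08, unadjusted P = 0.0448) and *Gpc5* (-0.19, -0.35 to -0.02, unadjusted P = 0.0297), with an adjusted P of 0.668 for each. *Hapln3* had 4.86, 3.63, 4.68, 5.17 and 4.79 CPM in WT hippocampus and 5.66, 6.09, 5.91, 6.36 and 5.15 in Ube3aOE hippocampus. Only mouse 10 of the Ube3aOE mice fell below the highest WT value. In cortex they were *Hapln4* (0.62, 0.14 to 1.10, unadjusted P = 0.0145), *Tnc* (0.27, 0.04 to 0.50, unadjusted P = 0.0253), *Chst15* (0.21, 0.05 to 0.36, unadjusted P = 0.0120) and *Ncan* (0.14, 0.02 to 0.26, unadjusted P = 0.0270), with an adjusted P of 0.96 for each. *Chst15* had 45.5, 42.3, 51.9, 44.8 and 47.4 CPM in WT cortex, 47.4, 56.6, 56.7, 54.8 and 51.3 in Ube3aOE cortex, 62.8, 58.6, 64.7, 51.8 and 63.0 in WT hippocampus and 63.2, 54.6, 64.0, 69.5 and 42.1 in Ube3aOE hippocampus. Ube3aOE mice 6 and 10 lay within the WT cortical range and the other 3 above it. Without the 6 libraries set apart, *Sdc3* in hippocampus gave 0.05, *Gpc3* 0.35, *Hapln3* 0.36, *Tnr* 0.23 and *Gpc5* -0.22. In cortex *Hapln4* then gave 0.58, *Tnc* 0.27, *Chst15* 0.16 and *Ncan* 0.18.

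**Figure D5:**
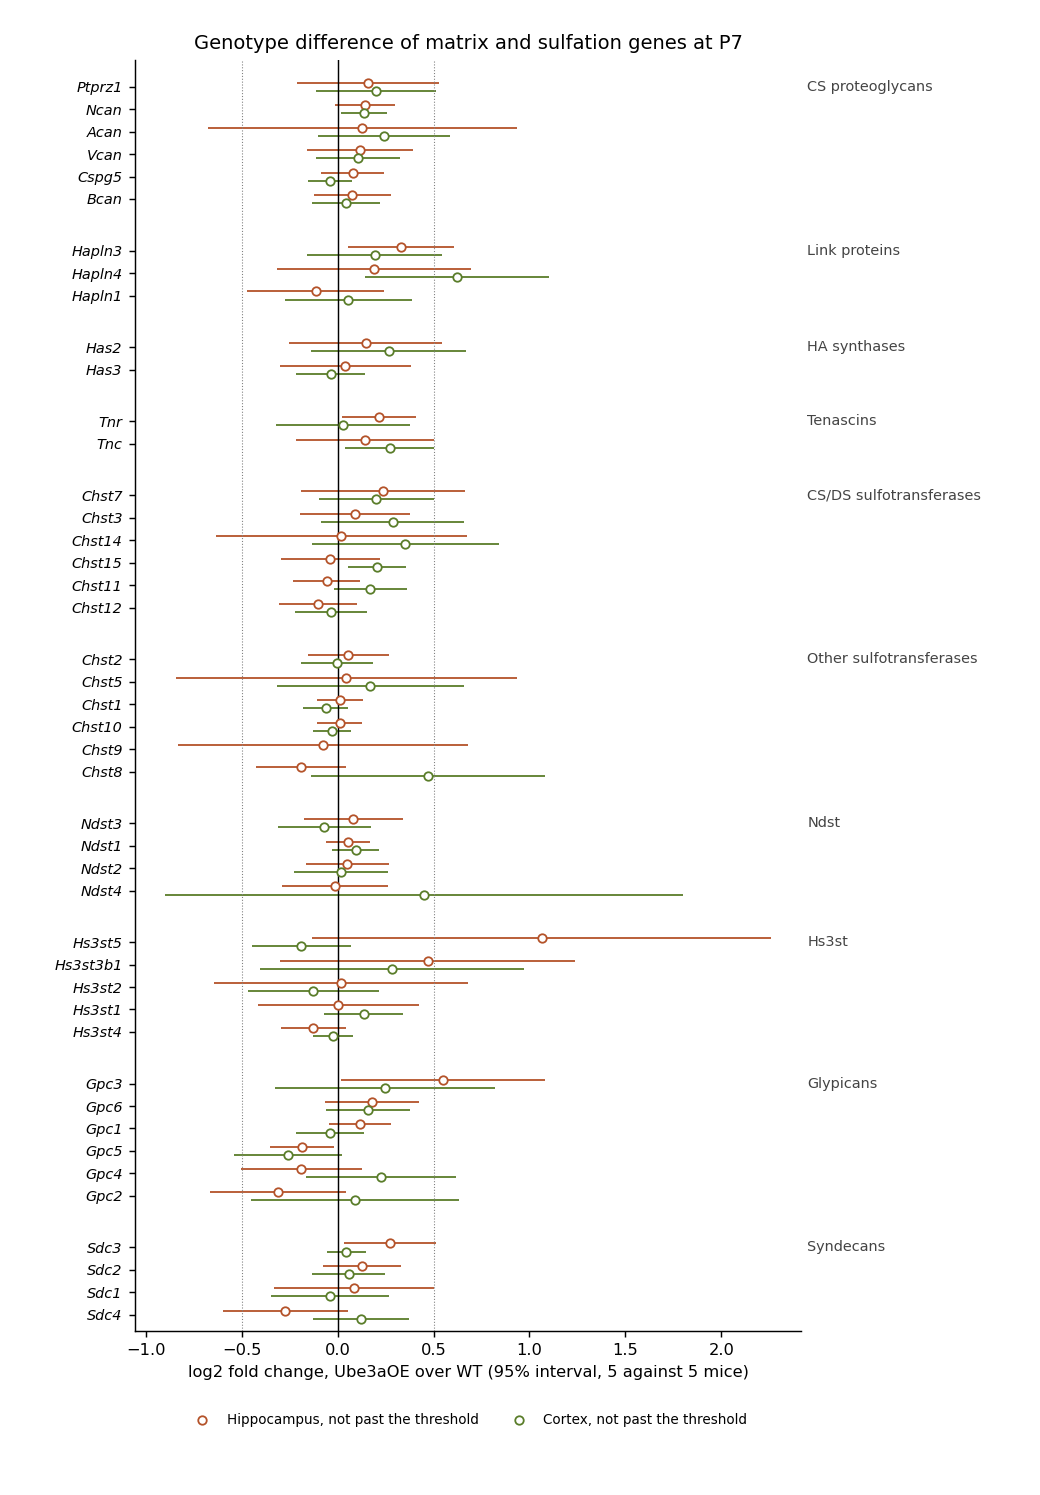
Log2 fold change of Ube3aOE relative to WT for the tested members in hippocampus and cortex, with 95% confidence intervals; open points have an adjusted P of at least 0.05. All points are open, 44 in hippocampus and 43 in cortex.

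Summed over all 50 members, WT hippocampus held 4866 to 5150 CPM and Ube3aOE hippocampus 5297 to 5915, without overlap, and WT cortex held 4391 to 4727 and Ube3aOE cortex 4653 to 4822, with overlap. *Sdc3* alone supplied much of that sum. Without it, WT and Ube3aOE hippocampus ran from 3819 to 4161 and from 3982 to 4421 CPM and overlapped, as cortex did (3210 to 3644 and 3465 to 3674). This sum was looked at after the values were known and was given no test.

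Of the 101 further pathway genes, none differed between the genotypes by adjusted P, and 8 of 98 in hippocampus and 6 of 98 in cortex had an unadjusted P under 0.05. Over all genes 7.21% in hippocampus and 4.44% in cortex did. Counts of 12 members could be raised or lowered by reads in exons shared with overlapping genes. Whether counting used strand was not given in the sources used here. *Chst15*, *Gpc1*, *Gpc5*, *Hs3st2*, *Hs3st3a1*, *Hs3st4*, *Has2*, *Has3*, *Sdc3*, *Tnc* and *Tnr* overlap exons on the opposite strand, and *Gpc2* on its own strand.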

How the data were processed

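The authors deposited 1 file of whole-number counts of reads per gene for each library, without normalization. The submitters' processing notes name HISAT2 2.1.0, HTSeq 0.11.2 and the GRCm38 (mm10) build. The annotation and the strand setting of the counting were not given in the sources used here. Reads not counted on a gene (18.8% to 30.3% of a library) were left out. Gene identifiers were matched to GENCODE M21 (47310 of 47729, all 50 members), which gave positions and exon lengths. Levels within a gene are CPM scaled by the trimmed mean of M-values (TMM). Levels between genes are CPM per kilobase of the union of exons.

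Counts were fitted with edgeR 4.0.16 (R 4.3.3; filterByExpr, robust quasi-likelihood F test), with 4 group means over 20 libraries for region and interaction, and within 10 libraries of a tissue for genotype. P-values were adjusted over all genes tested by the method of Benjamini and Hochberg, with a threshold of 0.05, and 95% intervals come from the SE of the fit. A gene with few reads in one tissue could pass the filter through the other, as *Chst9* and *Otx2* did through hippocampus and *Tnn* through cortex, and the folds and P-values of these 3 are not printed. The spread between mice corresponded to a biological coefficient of variation of 14.9% in hippocampus and 12.1% in cortex. The numbers in the labels pair both tissues of a mouse. After group means were removed, the paired libraries correlated with a median of 0.215 (-0.0367 to 0.248, above 0.1 in 9 of 10 mice).

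Alternatives were DESeq2 1.42.0, limma voom 3.58.1, DESeq2 size factors, no filter on low counts, labelled sex as a covariate, the mouse as a block, one fit over all 20 libraries for genotype, each mouse left out in turn, leaving out the mice against their labelled sex, and the longest transcript as length. Leaving out the 6 libraries with other-tissue markers (summed thalamus, striatum or choroid plexus markers over 3 times the median in hippocampus, or hippocampal markers over 1.4 times the median in cortex) was added after the data were seen. The steps were tested on simulated data. Values of all libraries were given for *Chst11*, for the member of each role with the largest called region difference, and for most members with an unadjusted P under 0.05 for genotype or interaction; *Vcan*, *Hapln1* and *Has3* were added after their values were seen. Pathway genes beyond a log2 fold change of 1 were named. The members and lists were chosen with earlier results of these data known.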

Additional observations from a re-analysis of the deposited data

Results flagged for a closer look

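In 7 of 176 searches of a member in a group of 5 libraries, 1 library lay so far from the other 4 that its gap to the nearest exceeded 0.71 of the whole range. Chance gives about 1 in 20, or 8.8 of 176. In WT cortex, *Ndst4* was highest in mouse 3 (9.32 CPM, next 3.59), and *Has3* (29.8, next 24.5) and *Chst8* (12.6, next 8.61) were highest in mouse 2, the library with the smallest share of reads on genes (69.7%). In WT hippocampus, *Sdc1* was highest in mouse 2 (10.4 CPM, next 6.89) and *Tnc* in mouse 1 (99.0, next 75.5). In Ube3aOE hippocampus, *Chst7* was lowest in mouse 9 (2.44 CPM, next 3.47) and *Gpc2* in mouse 10 (1.68, next 2.41).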

How the results depend on the processing

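The region call on *Chst11* held under all 18 alternatives, with a log2 fold change of 1.012 to 1.208 and an adjusted P of at most 2.97e-07. Of the 44 members, 32 to 36 were called across the alternatives against 33, and in WT mice 26 to 31 with each mouse left out against 30, but 19 without the 2 WT mice against their labelled sex, where fewer WT libraries entered the contrast. In Ube3aOE mice 25 to 30 were called against 28. Counts of members called for genotype and for the interaction stayed at 0 throughout, and pathway genes called by region ran from 48 to 59 against 58. With the mouse as a replicate block, 36 members were called by region, 30 in WT and 30 in Ube3aOE mice, with 59 pathway genes and 0 for the interaction; the added calls were *Chst12*, *Chst10* and *Tnc*, no call was lost, and *Chst11* gave 1.06.

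Without the 6 libraries with other-tissue markers the region difference changed sign for *Gpc4* (0.21), *Chst5* (-0.33) and *Sdc3* (-0.0791), none of them called, and so did the *Hs3st5* interaction (-0.21) and the *Chst11* genotype difference in hippocampus (0.0312). Without the mice against their labelled sex the last was 0.0141 and *Hs3st3b1* by region 0.16. With each mouse left out in turn, the uncalled region differences of *Hs3st3b1* ran from -0.29 to 0.00635 (positive without mouse 3), of *Ndst2* from -0.0724 to 0.0319 (positive without mouse 1, 8 or 9) and of *Sdc3* from -0.0122 to 0.0797 (negative without mouse 10). *Gpc3* by genotype in hippocampus was 0.38 without mouse 9 and 0.27 without the mice against their labelled sex. With the longest transcript as length, *Ncan* made up 61.4% of lecticans in cortex and 64.1% in hippocampus, *Ndst1* 80.1% of Ndst in hippocampus and *Sdc3* 93.1% of syndecans in cortex. The cause of these changes was not tested. Depth limits the members with few reads, such as *Chst9* with at most 25 in a library, and those not tested.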
